A study of Apostichopus japonicus with 3 samples.

Results

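The extracellular matrix, its integrin receptors and the proteases that cut it were followed in the intestine of the sea cucumber Apostichopus japonicus by 86 of 20712 assembled transcripts (isotigs). The 86 isotigs are those whose best protein match names a collagen, laminin, fibronectin, fibrillin, nidogen, integrin, thrombospondin, matrix metalloproteinase, ADAM or disintegrin protease, lysyl oxidase, prolyl 4-hydroxylase or metalloproteinase inhibitor, with matches to fibrinogen or tenascin left out. The searched words fibulin and proteoglycan found 0 isotigs. The 3 intestine libraries stand for stages around aestivation, a summer dormancy without feeding during which the gut of this animal shrinks. They are labelled NA (non-aestivation), DA (deep aestivation) and AA (arousal), with 1 library each. The design text gives 15 or more animals at each stage. Pooling, age, sex and water temperature are not stated in the sources used, nor is any genotype or treatment other than the stage.

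The matrix is the protein scaffold between cells. Fibrillar collagens form its fibres, laminins and nidogens form the basement membrane under an epithelium, and fibrillins form elastic microfibrils. Integrins, each a pair of an alpha and a beta chain, tie cells to it, while metalloproteinases of the matrix metalloproteinase (MMP), ADAM and ADAMTS families cut matrix or cell surface proteins. Echinoderm connective tissue is known for changing its stiffness under nervous control, and the sea cucumber gut wall has a connective tissue layer between its epithelium and its muscle.

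Uniquely aligned reads numbered 1.02 M in the non-aestivation library, 0.893 M in deep aestivation and 0.945 M in arousal, the order in which values are given throughout. With 1 library per stage there is no replicate check, so every difference below is between libraries, and intervals cover counting error alone. Levels are RPKM, reads scaled by the isotig's length and by the library's total of aligned reads, and folds are ratios of read shares with exact 95% conditional binomial intervals. An isotig is called higher or lower when log2 of the ratio of RPKM + 0.5 reaches 2-fold and an exact counting interval at a level of 0.001 excludes equal shares. Sums over families within a role were chosen after the values were seen. Of the 86 members, 78 reached the filter, a mean of 1 RPKM over the 3 libraries. The member just inside it, a thrombospondin 3 match (isotig17384), had a mean of 1.01 RPKM, and the member just outside, a fibronectin type III domain protein (isotig02258), had 0.839. The deposited table of the library labelled non-aestivation carries the name code of arousal, and the reverse. Every comparison therefore rests on the labels: were the name codes right, each value given for deep aestivation against 1 of these libraries would belong to the other, and directions between them would turn. A statement that deep aestivation lay above or below both others holds either way.

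The members' combined share of the non-aestivation library was 1.06%, with an exact 95% binomial interval of 1.04 to 1.08. It was 0.865% (0.846 to 0.885) of the deep aestivation library and 0.851% (0.833 to 0.870) of the arousal library. Among them 23 were called in at least 1 comparison: 9 collagens, 9 matrix proteases, 2 basement membrane isotigs, and 1 each of matrix glycoproteins, integrins and collagen-modifying enzymes. The other 55 that passed the filter were called in none. The 23 are 29.5% of the members tested, against 17.6% of all isotigs called in any comparison, and with at least 50 reads over the 3 libraries 21 of 42 members were called, against 40.6% of all such isotigs. Reads were concentrated, with 53.9% of all member reads on 3 isotigs: a protein disulfide isomerase that is also the beta subunit of prolyl 4-hydroxylase (isotig13164), an alpha-5 collagen (isotig14428) and a fibrillar collagen (isotig20045). The roles went different ways. Collagen reads were highest in the non-aestivation library and protease reads in the deep aestivation library. Reads of the collagen-modifying role, most of them on the protein disulfide isomerase isotig13164, were highest in arousal. Laminin reads were lowest in arousal.

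**Figure D1:**
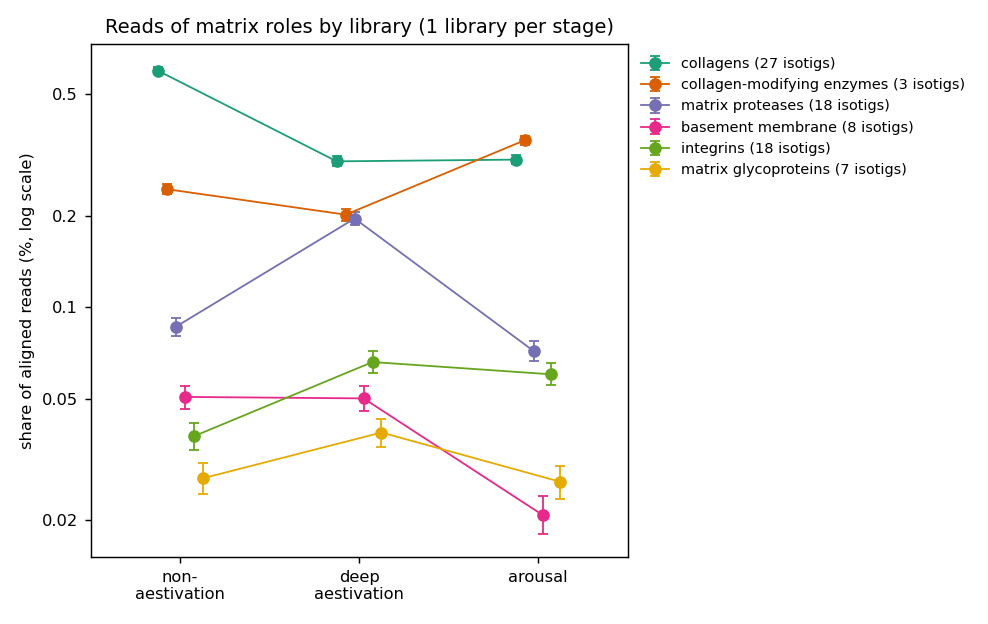
Share of all aligned reads (percent, log axis) held by the isotigs of 6 roles in each library, with exact 95% binomial intervals as bars and 1 library per stage. Collagens stood at 0.599% in non-aestivation and at 0.302% and 0.306% in the other libraries, and matrix proteases peaked at 0.196% in deep aestivation.

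In deep aestivation over non-aestivation, 5 of the 78 members were higher, 6 lower and 67 neither, against a background of 5.19% higher and 4.06% lower over all 18352 isotigs tested. The members' own shares were 6.41% and 7.69%. Among the 37 with at least 50 reads over both libraries 13.5% were higher, against 13.4% of all isotigs with that many reads, and 16.2% were lower, against 11.9%. At that depth members were called higher about as often as other isotigs, and lower in 6 cases of 37. The median log2 ratio was 0.49, beside 0.16 over all isotigs, and it was also 0.49 over the 70 members with more than 3 reads in either library, with 0 reads counted as 3. With at least 50 reads it was 0.33, beside 0.01 over all such isotigs.

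In arousal over deep aestivation, 3 members were higher, 10 lower and 65 neither, with a background of 3.37% and 5.31%. The lower members made 12.8% of those tested, and 27.8% of the 36 with at least 50 reads, where 14.8% of all such isotigs were lower and 10.2% higher, against 5.56% of the members. The median log2 ratio was -0.43, beside -0.16 over all isotigs, but with at least 50 reads it was -0.16 beside -0.13. In arousal over non-aestivation, 6 were higher, 10 lower and 62 neither, with a background of 3.84% and 5.21%. The lower members made 12.8% here too. Over all that passed the filter, the median was -0.04 in both the members and all isotigs. With at least 50 reads, 25.7% of 35 members were lower against 14.7% of all, 11.4% higher against 10.9%, and the medians were -0.08 and -0.13. These comparisons share libraries, so their counts are not independent of each other.

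**Figure D2:**
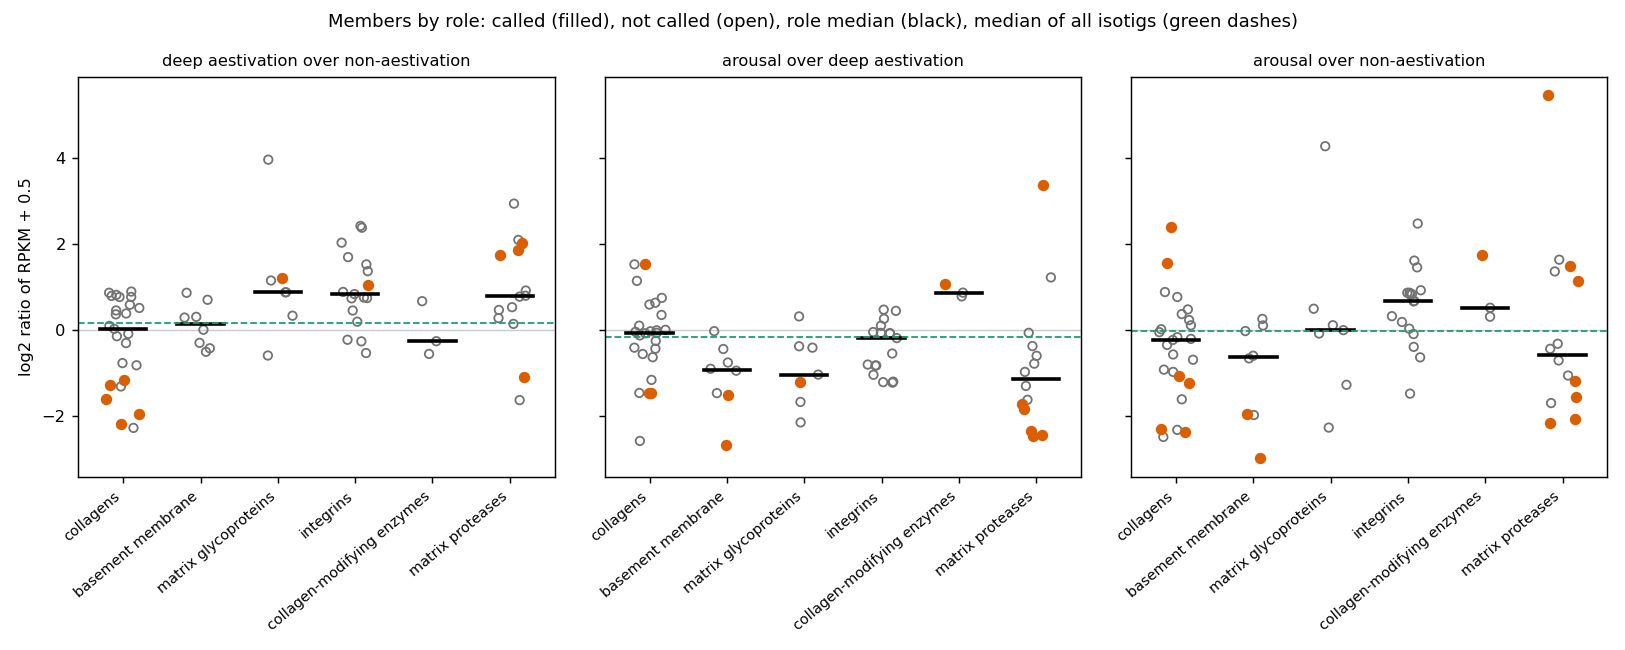
Log2 ratio of RPKM + 0.5 for each member that passed the filter, by role and comparison, with called members filled, the role's median as a black bar and the median of all isotigs as a dashed line. The called collagens lie below 0 in deep aestivation over non-aestivation, and 5 called proteases lie below 0 in arousal over deep aestivation.

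Collagens held the largest share of any role in non-aestivation and deep aestivation. In arousal they held 0.306%, below the 0.354% of the collagen-modifying enzymes. The collagen share was lower in the deep aestivation and arousal libraries than in the non-aestivation library. The fibrillar collagen isotig20045, which matches the alpha chains of a sea urchin fibrillar collagen, had 1984, 566 and 929 reads, or 2450, 801 and 1242 RPKM. The non-aestivation library was highest by either unit, and deep aestivation was 3.06-fold below it (2.79 to 3.37). The alpha-5 collagen isotig14428 had 2662, 1025 and 1034 reads (1646, 726 and 692 RPKM). Its reads were high in non-aestivation alone, and it was 2.27-fold lower in deep aestivation (2.11 to 2.44) and 2.38-fold lower in arousal (2.21 to 2.56) than in non-aestivation. Isotig14208 matches type V collagen alpha 1, a chain that in vertebrates starts fibril assembly. It had 431, 155 and 209 reads and was 2.43-fold lower in deep aestivation relative to non-aestivation (2.02 to 2.94).

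Isotigs matching the sea urchin 2 alpha fibrillar collagen did not share 1 pattern. Isotig14440 had 154, 29 and 28 reads and isotig15967 had 42, 9 and 7. Both were called lower in deep aestivation relative to non-aestivation, by 4.64-fold (3.10 to 7.15) and 4.07-fold (1.96 to 9.52), and in arousal than in non-aestivation, by 5.08-fold (3.38 to 7.90) and 5.54-fold (2.47 to 14.6). Isotig13305, with the same match, had 220, 328 and 125 reads. It was highest in deep aestivation and 2.78-fold lower in arousal (2.25 to 3.44). Isotig16541 had 7, 8 and 7 reads. Summed over the 4 isotigs, reads were 423, 374 and 167, so that the sum was called lower in arousal but not in deep aestivation, where it differed 1.01-fold from non-aestivation (0.879 to 1.17).

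Most other collagens were called neither way, among them collagen XVIII (isotig18183), with 9, 12 and 8 reads, and a 3 alpha procollagen (isotig19048), with 30, 36 and 28. Of 27 collagen isotigs, 25 passed the filter. In deep aestivation over non-aestivation 0 were higher, 5 lower and 20 neither, with a median log2 ratio of 0.02 and 13 above and 12 below 0. Without the 3 most abundant isotigs (isotig14428, isotig20045 and isotig14208, chosen after their values were seen), the collagen shares were 0.102%, 0.106% and 0.0757%. Deep aestivation then differed 1.04-fold from non-aestivation (0.950 to 1.14), and arousal was 1.40-fold lower than in deep aestivation (1.27 to 1.55). The 3 isotigs alone were 2.54-fold lower in deep aestivation relative to non-aestivation (2.40 to 2.68). Those 3 isotigs held 5077 of the 6121 collagen reads in non-aestivation, so the summed share largely follows them. Outside the 3, isotig14440 and isotig15967 were also called lower in deep aestivation, while isotig13305 had more reads there.

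Among the 9 isotigs matching an alpha-5 collagen, isotig14912 had 129, 147 and 56 reads and was 2.78-fold lower in arousal than in deep aestivation (2.03 to 3.85) and 2.13-fold lower than in non-aestivation (1.54 to 2.97). The others apart from isotig14428 were called in no comparison, and isotig06514 missed the filter with 1 read. The largest of them was isotig06513, with 203, 143 and 162 reads. Isotigs matching alpha-2 collagen included those higher in arousal. Isotig03732 had 18, 16 and 52 reads, 3.07-fold higher in arousal than in deep aestivation (1.73 to 5.76) and 3.13-fold higher than in non-aestivation (1.80 to 5.68). Isotig03731, of the same length, had 5, 9 and 30 reads and was 6.49-fold higher in arousal than in non-aestivation (2.49 to 21.4). Reads were counted where they aligned uniquely, over at most 20.4% of the length of isotig03732, so any reads that such isotigs share would be missing, and the division between them is uncertain. The 8 isotigs with this match summed to 97, 85 and 117 reads, which was called neither way.

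**Figure D3:**
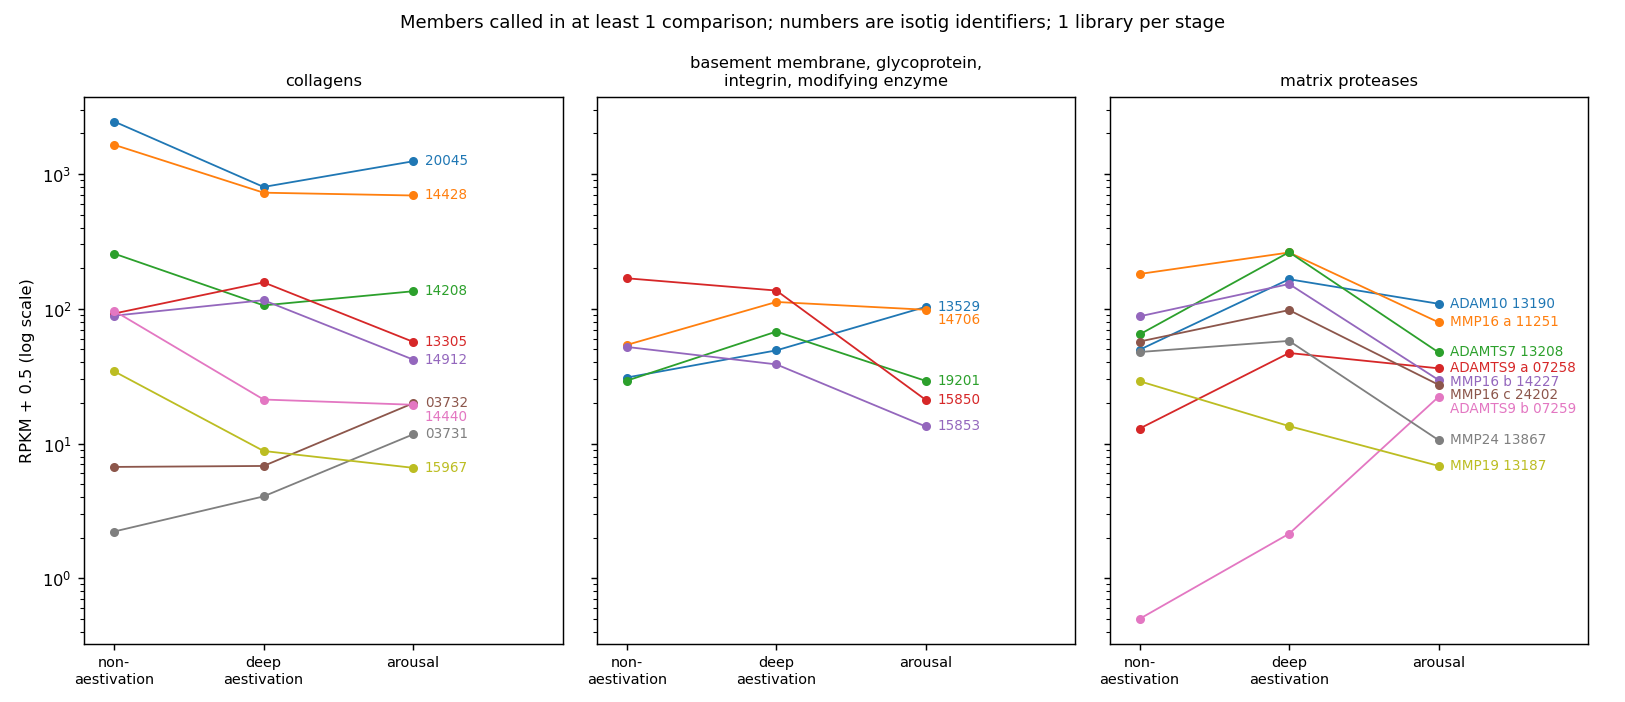
RPKM + 0.5 (log axis) of the 23 members called in at least 1 comparison, by library, labelled by isotig number and, for proteases, by the name of the match. Points are single libraries. The most abundant collagens are highest in non-aestivation, and ADAMTS7 and MMP16 isotigs are highest in deep aestivation.

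All 3 isotigs grouped as collagen-modifying enzymes had their highest reads in the arousal library. Isotig13164 held 80.3%, 81% and 79.4% of the role's reads. Members named for a prolyl 4-hydroxylase were a beta subunit and a transmembrane enzyme alone. The other subunit of the collagen hydroxylase was not matched among the members. The beta subunit of prolyl 4-hydroxylase (isotig13164), the protein disulfide isomerase that holds the collagen hydroxylase together, had 2006, 1458 and 2652 reads in non-aestivation, deep aestivation and arousal (707, 589 and 1012 RPKM). Lysyl oxidase-like 2 (isotig13151), of a family that cross-links collagen, had 430, 254 and 492 reads. Both were lowest in deep aestivation and highest in arousal, but neither reached 2-fold in any comparison. A transmembrane prolyl 4-hydroxylase (isotig13529), which in mammals acts on hypoxia-inducible factor rather than on collagen, had 63, 88 and 197 reads. It was called higher in arousal, by 2.12-fold over deep aestivation (1.64 to 2.75) and 3.38-fold over non-aestivation (2.54 to 4.57). The 3 enzymes together held 0.244%, 0.202% and 0.354% of reads, a share 1.75-fold higher in arousal than in deep aestivation (1.66 to 1.86). Without the transmembrane hydroxylase the difference was 1.74-fold (1.64 to 1.84), and without isotig13164 it was 1.90-fold (1.67 to 2.17).

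Among basement membrane transcripts, laminin reads were similar in non-aestivation and deep aestivation and lower in arousal, while the few type IV collagen and nidogen reads differed by less than counting error. The 5 laminin isotigs summed to 476, 403 and 155 reads, 2.75-fold less in arousal than in deep aestivation (2.28 to 3.33). The other 3 isotigs summed to 44, 46 and 42, a 1.16-fold difference (0.746 to 1.80). All 8 isotigs held 0.0509%, 0.0503% and 0.0209% of reads, 2.41-fold less in arousal than in deep aestivation (2.04 to 2.87). All 8 log2 ratios of arousal over deep aestivation lay below 0, as did 10876 of all 18352 isotigs tested. The ratio of type IV collagen was only -0.03. Of the 8, 2 or 25% were called lower, beside 5.31% of all isotigs. With at least 50 reads over both libraries it was 2 of 5, or 40%, beside 14.8% of all such isotigs. The 2 called are laminin alpha isotigs, the long chain of the laminin trimer that binds cells. Isotig15850 had 212, 150 and 24 reads, and isotig15853 had 65, 42 and 15. Isotig15850 was 6.61-fold lower in arousal than in deep aestivation (4.28 to 10.6) and 8.16-fold lower than in non-aestivation (5.34 to 13.0), and isotig15853 was 2.96-fold lower in arousal than in deep aestivation (1.61 to 5.75) and also called lower than in non-aestivation. Without isotig15850 the role was 1.83-fold lower in arousal than in deep aestivation (1.51 to 2.22).

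Laminin gamma 1, the chain through which nidogen joins laminin in vertebrates, was carried by isotig16523 with 105, 112 and 61 reads and isotig20868 with 89, 96 and 54. The pair ran in parallel and were lowest in arousal, but their summed difference of 1.91-fold from deep aestivation (1.52 to 2.43) stayed under 2-fold. The difference was larger for the summed laminin alpha isotigs. Isotig15850, isotig15853 and a putative laminin A chain, isotig26161 with 5, 3 and 1 reads, summed to 282, 195 and 40 reads, 5.16-fold lower in arousal than in deep aestivation (3.66 to 7.44). The interval of this sum does not overlap that of laminin gamma, but most of its reads were on isotig15850. The interval of isotig15853 alone (1.61 to 5.75) does overlap that of laminin gamma. Matches to a laminin beta chain, the remaining chain of the trimer, numbered 0 among the members. A type IV collagen match (isotig10619), the network collagen of basement membranes, had 32, 28 and 29 reads, and the nidogens isotig20091 and isotig22631 had 9, 13 and 10 and 3, 5 and 3. None of these was called.

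Proteases were the role with the largest share of called members, 9 of the 14 that passed the filter out of 18, or 64.3% beside 17.6% of all isotigs. With at least 50 reads over the 3 libraries it was 8 of 9, beside 40.6%. Their summed shares were 0.0864%, 0.196% and 0.0720% of reads. Deep aestivation lay above both other libraries, 2.27-fold over non-aestivation (2.09 to 2.46) and 2.72-fold over arousal (2.49 to 2.98). Without ADAMTS7 (isotig13208), the member with the most reads, these were 1.83-fold (1.66 to 2.01) and 2.13-fold (1.93 to 2.36).

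The ADAM and ADAMTS proteases carried most of the difference between deep aestivation and non-aestivation. An isotig matching ADAMTS7, a secreted protease that in mammals cuts cartilage oligomeric matrix protein, had 171, 612 and 116 reads (64.0, 262 and 47.0 RPKM). Its deep aestivation value stood alone, 4.10-fold above non-aestivation (3.45 to 4.88) and 5.58-fold above arousal (4.57 to 6.87). ADAM10 (isotig13190), a membrane protease that sheds Notch and cadherins from the cell surface, had 134, 393 and 273 reads. Both other libraries were higher than non-aestivation, by 3.36-fold in deep aestivation (2.75 to 4.12) and 2.20-fold in arousal (1.79 to 2.73).

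ADAMTS9, which in mammals cuts large proteoglycans, was matched by 2 isotigs of nearly the same length. Isotig07258 had 26, 85 and 69 reads and isotig07259 had 0, 3 and 42. The first was 3.74-fold higher in deep aestivation relative to non-aestivation (2.39 to 6.05). The second was called higher in arousal than in non-aestivation, by 15.2-fold with the 0 reads counted as 3 and no interval given. Isotig07259 was also 13.2-fold higher in arousal than in deep aestivation (4.23 to 66.7). Uniquely aligned reads covered at most 34% of isotig07258 and 32.6% of isotig07259. Any reads that they share would be missing, and the division between them is uncertain. Their sum of 26, 88 and 111 reads was 3.88-fold higher in deep aestivation relative to non-aestivation (2.48 to 6.26) and differed 1.19-fold between arousal and deep aestivation (0.893 to 1.60). ADAMTS2 (isotig20219), a procollagen-trimming enzyme in mammals, had 18, 30 and 10 reads and was called in no comparison. The other members of these families were ADAMTS16 (isotig17563) with 0, 3 and 1 reads and a second ADAM10 match (isotig27535) with 4, 1 and 1.

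Matrix metalloproteinases were low in arousal. Their 11 isotigs held 0.0518%, 0.0696% and 0.0178% of reads, 3.91-fold less in arousal than in deep aestivation (3.29 to 4.67) and 2.92-fold less than in non-aestivation (2.45 to 3.49). MMP16, in vertebrates a membrane-anchored protease, was matched by 5 isotigs. Isotig11251 had 176, 222 and 71 reads, isotig14227 had 146, 222 and 45, and isotig24202 had 32, 48 and 14. All 3 were highest in deep aestivation and lowest in arousal, and they were 3.31-fold (2.52 to 4.39), 5.22-fold (3.78 to 7.36) and 3.63-fold (1.97 to 7.13) lower in arousal than in deep aestivation. The first 2 were also called lower in arousal than in non-aestivation, by 2.29-fold (1.73 to 3.06) and 3.00-fold (2.13 to 4.29). The remaining MMP16 isotigs, isotig08657 and isotig08658, each had 3 reads in non-aestivation and 0 in the other libraries.

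MMP24, another membrane-anchored member in vertebrates (isotig13867), had 86, 91 and 17 reads. Arousal alone was low, 5.66-fold below deep aestivation (3.35 to 10.1) and 4.67-fold below non-aestivation (2.76 to 8.39). MMP19, a secreted member (isotig13187), had 78, 31 and 16 reads. It differed from the other called MMP isotigs in being called lower in deep aestivation, 2.20-fold below non-aestivation (1.43 to 3.45). MMP19 was also 4.50-fold lower in arousal than in non-aestivation (2.61 to 8.27). MMP14 (isotig19398) had 1, 1 and 3 reads, and a second MMP24 match (isotig13975) had 0, 1 and 0. A membrane-type MMP1 alpha match had 3, 4 and 2 reads in isotig07199 and 2, 1 and 0 in isotig07198. The metalloproteinase inhibitor TIMP-3 (isotig08951), which blocks many of these enzymes, had 3, 3 and 2 reads, or 0.000293%, 0.000336% and 0.000212% of reads, so a difference in it was not detectable at this depth.

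Integrin transcripts were somewhat more abundant in deep aestivation and arousal than in non-aestivation. Of 18 isotigs, 17 passed the filter and 1 was called in any comparison, or 5.88% beside 17.6% of all isotigs. With at least 50 reads over the 3 libraries it was 1 of 6, beside 40.6%. The integrin share was 0.0378%, 0.0662% and 0.0603%, 1.75-fold higher in deep aestivation relative to non-aestivation (1.54 to 2.00) and 1.60-fold higher in arousal (1.40 to 1.82). Arousal and deep aestivation differed 1.10-fold (0.976 to 1.23). Of the 17 that passed the filter, 14 had a log2 ratio above 0 in deep aestivation over non-aestivation, as did 10204 of all 18352 isotigs. The integrin median was 0.83, beside 0.16 over all isotigs. Median-ratio scaling moved the median of all isotigs in this comparison by -0.12.

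The integrin with most reads was the beta G chain, first described in sea urchin, in isotig14706 with 81, 148 and 137 reads and isotig18648 with 86, 139 and 142. Isotig14706 was called 2.09-fold higher in deep aestivation relative to non-aestivation (1.59 to 2.78). The summed pair was 1.97-fold higher (1.62 to 2.40), just under the threshold. Without beta G the integrin share was 1.59-fold higher in deep aestivation relative to non-aestivation (1.33 to 1.90). Beta subunits summed to 209, 365 and 341 reads, 2.00-fold higher in deep aestivation relative to non-aestivation (1.68 to 2.38), and alpha subunits to 177, 226 and 229, 1.46-fold higher (1.20 to 1.79). These intervals overlap.

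Beta C, also a sea urchin chain, was carried by isotig15884 with 4, 16 and 7 reads and isotig21789 with 6, 14 and 7. Neither was called alone, but their sum of 10, 30 and 14 was 3.44-fold higher in deep aestivation relative to non-aestivation (1.63 to 7.88). Beta L (isotig13462 and isotig16966) summed to 32, 48 and 48 reads. Among alpha chains, alpha-Lv1 (isotig13117 and isotig21234) summed to 57, 80 and 113 reads and was 2.15-fold higher in arousal than in non-aestivation (1.55 to 3.00), called as a sum and not as single isotigs. Integrin alpha 1 (isotig17387) had 39, 57 and 41 reads, alphaP (isotig18257) 3, 5 and 2, SU2 (isotig21757) 4, 12 and 7, and alpha-9 (isotig22079) 12, 12 and 7. The hemocyte-specific alpha subunit 2, named for its match in sea urchin, had 6 isotigs with 62, 60 and 59 reads in all, a 1.11-fold difference between deep aestivation and non-aestivation (0.764 to 1.61).

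Matrix glycoproteins were mostly fibrillins. Isotig14126, a fibrillin 2 match and the largest of the role, had 233, 256 and 203 reads and was called in no comparison. Another fibrillin 2 match, isotig19201, had 25, 51 and 23 reads. Deep aestivation was above both other libraries, 2.34-fold over non-aestivation (1.42 to 3.93) and 2.35-fold over arousal (1.41 to 4.02). All 5 fibrillin isotigs summed to 276, 341 and 252 reads, 1.41-fold higher in deep aestivation relative to non-aestivation (1.20 to 1.66) and 1.43-fold higher than in arousal (1.21 to 1.69). Fibronectin 1a (isotig25023) and thrombospondin 3 (isotig17384), both cell-binding matrix proteins, had 3, 5 and 1 and 2, 1 and 0 reads.

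Deep aestivation was called higher than both other libraries in 2 of the 78 members tested, and lower than both in 0. The 2 were the ADAMTS7 isotig13208 and the fibrillin isotig19201. The background over 18352 isotigs was 1.95% higher (358 isotigs) and 1.16% lower (213 isotigs) than both. By this count the members did not stand out. The ADAMTS7 isotig remained called in each alternative setting of scaling, filter, pseudocount and call rule, while isotig19201 lost a call under 3 of them, median-ratio scaling, upper-quartile scaling and leaving the most abundant isotigs out of the totals.

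**Figure D4:**
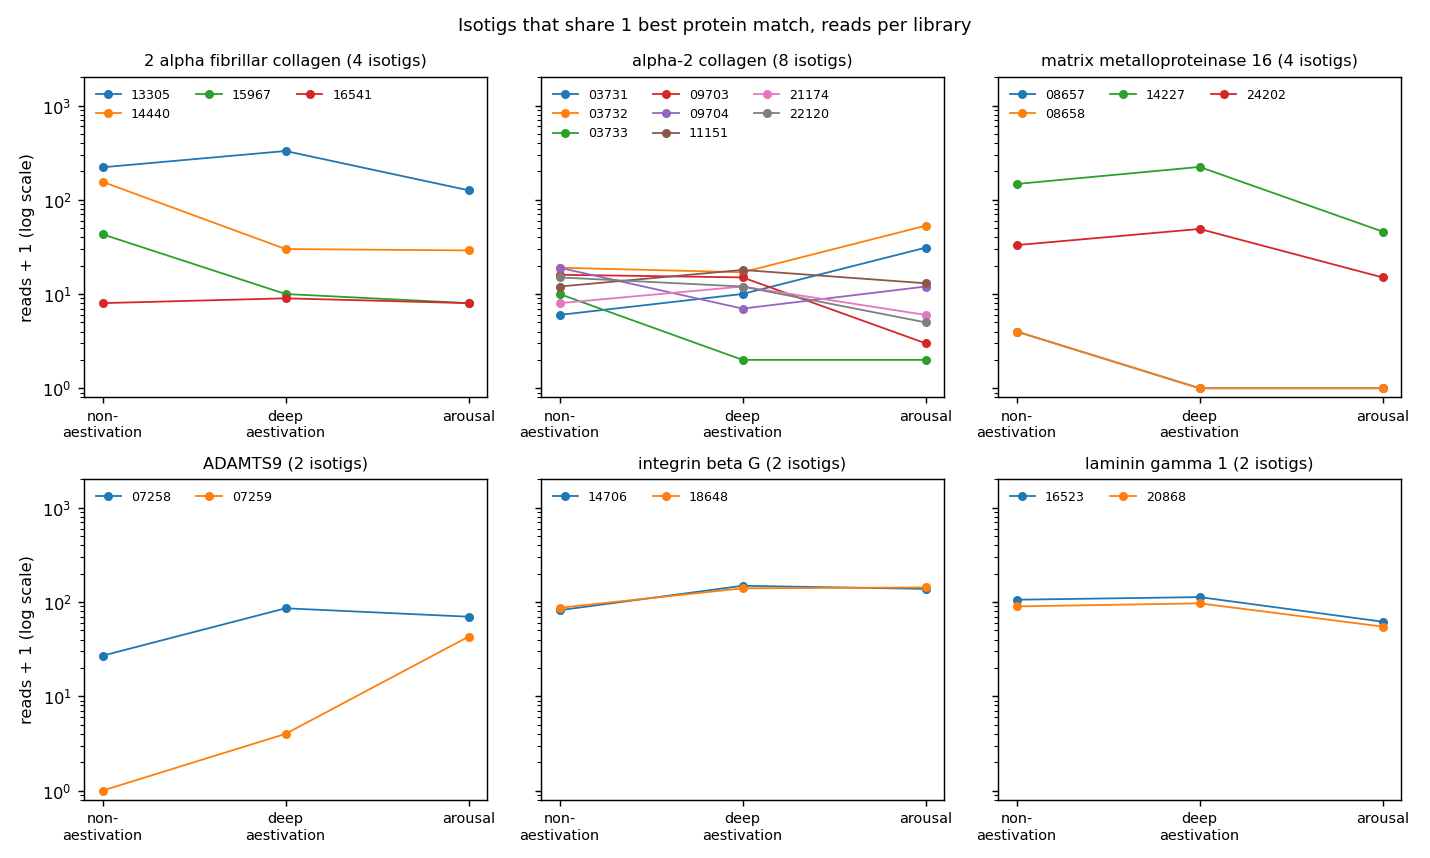
Reads + 1 per library (log axis, not scaled for library size) of isotigs that share 1 best protein match, for 6 matches. The isotig pairs of integrin beta G and laminin gamma 1 run together, while those of 2 alpha fibrillar collagen and ADAMTS9 do not. The division of reads between the ADAMTS9 isotigs is uncertain.

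Members with the same best match may be pieces or variants of 1 gene, or separate genes. The 86 members have 55 distinct matches, and 46 of them share their match with another member. Isotigs with the same match and close to equal ratios, as in integrin beta G and beta L and laminin gamma 1, may therefore not be independent observations. Called proteases with a shared match are isotig14227 with isotig24202 and isotig07258 with isotig07259. The count of called proteases may thus stand for fewer genes. Of 4 isotigs named for a matrix domain or a binding partner, calcium and integrin binding protein (isotig13290) had 89, 88 and 105 reads, and the other 3 had at most 4 reads in any library.

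Genes that link integrins to the cell or sit beside the matrix were read from a separate list of 42 isotigs, 37 of which passed the filter. In deep aestivation over non-aestivation 9 were higher, 0 lower and 28 neither, with a median log2 ratio of 1.11, beside 5.19% higher, 4.06% lower and a median of 0.16 over all isotigs. In arousal over deep aestivation 1 was higher and 2 lower (median -0.30), with 3.37% and 5.31% over all isotigs (median -0.16). In arousal over non-aestivation 4 were higher and 0 lower (median 0.39), with 3.84% and 5.21% over all isotigs (median -0.04). Calls depend on depth, and shares at equal depth were not computed for this list. Of the 5 with most reads, alpha-actinin (isotig13079), which bundles actin at adhesions, had 2125, 1740 and 1332 reads. Seven-pass cadherin (isotig13423) had 142, 209 and 446, called higher in arousal by 2.02-fold over deep aestivation (1.71 to 2.39). A transglutaminase-like protein (isotig13510) had 300, 155 and 291, the cell surface proteoglycan syndecan (isotig03217) 152, 222 and 204, and beta-parvin (isotig14465), a partner of integrin-linked kinase, 154, 87 and 91. These 4 apart from the cadherin were not called.

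Called members of this list were chosen for mention after their values were seen. The talin isotigs isotig14159 and isotig14701, the protein that switches integrins on, had 58, 108 and 97 and 62, 124 and 99 reads, 2.13-fold (1.54 to 2.99) and 2.29-fold (1.68 to 3.16) higher in deep aestivation relative to non-aestivation. A hemicentin (isotig15938), a matrix protein of cell junctions, had 60, 139 and 66 reads, 2.65-fold higher in deep aestivation (1.95 to 3.65). A focal adhesion kinase isotig (isotig16166), which signals from integrins, had 4, 21 and 5 reads, while the larger isotig13267 had 83, 122 and 76 and was not called. A glypican (isotig16294) was 2.67-fold higher (1.63 to 4.51), with 24, 56 and 48 reads.

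Markers of other tissue layers also differed between the libraries. Gut epithelium markers, of which 16, 16 and 17 of 17 had reads, held 1.67%, 0.406% and 5.55% of reads, most of it intestinal fatty acid binding protein. Muscle markers, with 35, 34 and 31 of 41 having reads, held 0.215%, 0.167% and 0.144%. Neuron markers, with 33, 34 and 33 of 36, held 0.0869%, 0.133% and 0.102%, and coelomocyte markers, with 4 of 5 in each library, 0.0246%, 0.0274% and 0.0246%. In the list chosen for gonad, bindin, vasa, nanos and piwi were matched by 0 isotigs, so gonad content could not be read from it. Its only matches, 2 vitellogenin isotigs, held 0.0511%, 0.161% and 0.253%. Summed shares and medians over isotigs did not always go the same way. In deep aestivation over non-aestivation the median log2 ratio was 0.35 in gut epithelium, with 5 higher and 1 lower of 16 tested. It was 0.41 in muscle (2 higher and 4 lower of 31), 0.74 in neuron (6 and 1 of 33) and -0.16 in coelomocyte markers (1 and 0 of 4). Over all isotigs it was 0.16, with 5.19% higher and 4.06% lower. The part of these layers in the matrix differences was not tested, and in bulk RNA fewer cells of a type and less RNA per cell cannot be told apart.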

How the data were processed

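Per the labels, the deposited tables hold mRNA sequencing of intestine, 1 library per stage. Per the file headers, each gives a count of uniquely aligned reads per isotig, its length in bp, the percent covered, an RPKM that the authors computed from count, length and library total, and the best protein match. Recomputed RPKM differed from the deposited values by a relative 5.00e-15 at most. CASAVA 1.5 is named in the submitters' processing notes. Neither aligner nor assembler is named in the sources used here. Isotigs not listed in a table were taken as 0 reads.

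Roles were assigned by reading the match descriptions. Log2 ratios used RPKM + 0.5 and a mean RPKM of at least 1 over the 3 libraries (18352 of 20712 isotigs). No test was made, since no stage has replicates. Depth was 1.02, 0.893 and 0.945 M reads, and 3 reads, the limit that a count of 0 allows, were 0.000293%, 0.000336% and 0.000318% of them. Reads were amplified by PCR with no molecular identifiers, so intervals and floors cover counting error only. Named members are those called in any comparison, the largest of each role and the extreme ratios among members with at least 50 reads; members outside this rule are given by their reads and were chosen after their values were seen. The members and lists were chosen with earlier results of these data known. The text patterns were narrowed after reading the matched descriptions. The calling was tested on counts simulated with counting error alone, with changes set only in isotigs of at least 50 expected reads. Such counts hold no spread between animals or from PCR. Alternatives were other pseudocounts, filters, scalings, call rules and groupings of members. Python 3.11.15, numpy 2.4.6, pandas 2.3.3, scipy 1.17.1 and matplotlib 3.10.9 were used.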

Additional observations from a re-analysis of the deposited data

How the results depend on the processing

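Among counts of called members and read shares, 65 recomputed values stayed close to those reported (counts within 1.5 times) and 21 moved. With median-ratio and with upper-quartile scaling alike, 3 members were higher in deep aestivation than in non-aestivation, 5 were higher in arousal than in deep aestivation, and 1 was apart in deep aestivation. That last count was also 1 when totals left out the 20 most abundant isotigs. The cause was not tested. Requiring 2-fold alone, which calls more members by construction, gave 16 higher in deep aestivation than in non-aestivation, 6 higher and 24 lower in arousal than in deep aestivation, 13 higher and 19 lower in arousal than in non-aestivation, and 6 apart in deep aestivation. A 95% interval gave 10 higher in deep aestivation than in non-aestivation. Summing reads over members with the same best match gave 1 higher in arousal than in deep aestivation. The member share of reads was 1.46%, 1.26% and 1.30% with totals that left out the 20 most abundant isotigs, and 0.859%, 0.702% and 0.570% without isotig13164, the member with most reads, in non-aestivation, deep aestivation and arousal. The median log2 ratio of arousal over non-aestivation, -0.04, became 0.01 with median-ratio scaling, 0.04 with upper-quartile scaling and 0.10 without the 20 most abundant isotigs, so it has no clear direction. In arousal over deep aestivation the members' median of -0.43 became -0.24 with median-ratio scaling, -0.28 with upper-quartile scaling and -0.16 with at least 50 reads, and in deep aestivation over non-aestivation 0.49 became 0.36 with median-ratio scaling and 0.33 with at least 50 reads. Median-ratio scaling shifted the median of all isotigs by -0.12 in deep aestivation over non-aestivation and 0.17 in arousal over deep aestivation. Calls lost under a scaling were those of isotig14706, isotig15853, isotig19201 and isotig14912, and a minimum of 50 reads removed those of isotig03731, isotig07259 and isotig15967 in arousal. No paired analysis was possible because each stage has 1 library, and no replicate could be left out. Members with few reads could not reach the call rule unless their fold was large.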

Other observations

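Members were annotated mainly from other echinoderms: 65 of the 86 best matches are sea urchin proteins, 57 of them from Strongylocentrotus purpuratus. The weakest match had an e-value of 2.81e-06 (isotig10110, a fibrillar collagen with 10, 5 and 12 reads), and 9 members had one above 1e-10. Gene ontology terms were deposited for 32 members, and 4 of these carried the term for proteinaceous extracellular matrix, against 13 of 5043 annotated isotigs in all. The term for extracellular matrix disassembly was on 3 members and on 4 isotigs in all. Members were chosen by names of matrix proteins, so an excess of such terms among them follows from the choice.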
